A study of Mus musculus with 61 samples.

Results

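Mettl21e and Mettl21c are 2 neighbouring genes for protein methyltransferases, described here in the skeletal muscle of 8 inbred mouse strains. They were found by their symbols among 19462 genes in the deposited count table, and both were among the 16682 genes with enough counts to be tested. The pair was chosen by its measured levels, the strain means and the low Mettl21e of NZO. Its strain levels, and the difference of NZO from the other strains, are therefore given as descriptions with no test.

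RNA was measured in 61 libraries of the strains that founded the Diversity Outbred mouse population. There were 7 libraries of NOD, of Cast and of PWK and 8 of each other strain (129, AJ, B6, NZO and WSB). All mice had been kept on a diet high in fat and sugar, labelled 45 percent fat, and none of the strains served as a control. Sex, age, batch and the name of the muscle are missing from the labels. Nor do these state whether a library stands for an animal of its own, so every p-value measures only the spread between libraries, which may be in part technical.

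METTL21 proteins belong to the seven-beta-strand methyltransferases, which transfer a methyl group from S-adenosylmethionine, here to lysine side chains of other proteins. METTL21C is found mainly in muscle and is known to methylate VCP (p97), an ATPase that pulls ubiquitylated proteins out of complexes, and the chaperone HSPA8. METTL21E has been described as a muscle protein that lowers the activity of the 26S proteasome and supports the size of fast type IIb fibres. The strain spread of the genes is thus set beside the genes of those partner systems and beside fibre type genes.

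Both genes lie on the minus strand of chromosome 1 in GRCm38, Mettl21c at chr1:44009408-44020034 and Mettl21e at chr1:44204070-44218961. The coding transcript of Mettl21e has 5 exons, 3211 bases and a coding length of 735 bases with the stop codon. That of Mettl21c also has 5 exons, with 1086 bases and a coding length of 747 bases, and in both genes the start codon lies in exon 2. Aligned over 723 bases, the coding sequences were identical at 399 positions (55.2%), with a longest identical run of 11 bases. Neither had a near copy among annotated transcripts (0 with at least 95% identity over at least 200 bases).

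The sequences that follow, from GENCODE M21 on GRCm38, run over 90 coding bases of the binding site for S-adenosylmethionine, a stretch the genes share. It was picked as the stretch of that length, in frame and without gaps, with the most identical bases, so it is more alike than the genes as a whole. The sequences are shown because they let a reader see how reads of the pair can be told apart. Capitals mark the 26 bases that differ between them, and the other 64 are identical.
Mettl21e: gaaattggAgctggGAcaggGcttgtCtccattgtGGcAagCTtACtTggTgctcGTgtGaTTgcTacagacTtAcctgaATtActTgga
Mettl21c: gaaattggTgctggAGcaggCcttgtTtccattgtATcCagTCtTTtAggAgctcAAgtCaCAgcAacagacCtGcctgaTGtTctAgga
The first covers coding bases 283 to 372 of Mettl21e and the second coding bases 304 to 393 of Mettl21c.

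Total estimated counts ran from 17.1 to 65.2 M per library (median 33.7 M). In library B6_5 the ribosomal RNA gene Rn18s-rs5 took 46.3% of the counts, against at most 9.76% in the others, and the scaling between libraries (TMM) takes this share into account. Skeletal muscle fibre markers were high in every library, with a summed level of 68455 to 178362 CPM (counts per M of the scaled library size). Xist, the RNA that coats the inactive X chromosome, was at 141 to 278 CPM in 31 libraries and at 0.0362 to 30.9 CPM in the other 30. Ddx3y, a Y-linked gene, was at 0 to 2.77 CPM in the former and at 66.8 to 200 CPM in the latter. Every strain held 3 or 4 libraries of each kind.

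Mettl21e varied widely among the strains. Its strain means spanned 34.8-fold and its libraries ran from 0.459 to 107 CPM, or 17 to 3614 counts. Strain accounted for 85.4% of the variance of its log2 CPM across the 61 libraries. Mettl21c spanned 2.55-fold in its strain means, with libraries at 10.1 to 121 CPM (252 to 5415 counts), and strain accounted for 34.7% of its variance. The all-strain test called 85.5% of all tested genes, so a difference among strains is the usual state of a gene in this table.

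NZO had the lowest Mettl21e. Its libraries ran from 0.459 to 3.81 CPM with a median of 1.27 CPM and a mean of 1.56 ± 1.09 (SD, n = 8). The lowest of them, NZO_8, rests on 17 counts, or 0.437 per M of all counts with a 95% Wilson interval of 0.273 to 0.700, which covers counting error only. B6 was next, at 1.25 to 5.03 CPM with a median of 2.80 CPM and a mean of 3.05 ± 1.40 (SD, n = 8). NZO and B6 overlapped in range, and all libraries of both lay below every library of the remaining 6 strains.

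PWK followed, with libraries at 6.42 to 16.1 CPM, a median of 11.7 CPM and a mean of 12.2 ± 3.28 (SD, n = 7). AJ ran from 7.37 to 41.3 CPM, with a median of 16.7 CPM and a mean of 20.5 ± 13.4 (SD, n = 8). In 129 the range was 12.9 to 39.8 CPM, the median 27.8 CPM and the mean 25.9 ± 9.06 (SD, n = 8). These 3 strains overlapped, and the differences between neighbouring means were within the SDs.

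The highest levels of Mettl21e were in NOD, Cast and WSB. NOD ran from 14.1 to 58.8 CPM, with a median of 37.6 CPM and a mean of 32.5 ± 17.6 (SD, n = 7). Cast ran from 11.5 to 107 CPM, with a median of 45.8 CPM and a mean of 51.3 ± 31.8 (SD, n = 7). WSB ran from 28.3 to 89.4 CPM, with a median of 47.6 CPM and a mean of 54.2 ± 20.3 (SD, n = 8). Cast and WSB could not be ordered, since their means differed by less than the SD of either. The single step in the whole order at which the ranges of neighbouring strains did not overlap was the one from B6 to PWK.

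Mettl21c showed another order, in which no neighbouring strains were separate. AJ had a mean of 20.6 ± 4.71 CPM (SD, n = 8, range 14.2 to 25.2, median 22.6), and Cast had 20.7 ± 10.5 CPM (SD, n = 7, range 14.5 to 44.1, median 16.4). NOD had 23.6 ± 15.6 CPM (SD, n = 7, range 10.1 to 48.0, median 13.9). NZO, lowest for Mettl21e, stood in the middle for Mettl21c with 31.0 ± 10.5 CPM (SD, n = 8, range 19.9 to 47.5, median 29.2). PWK had 34.3 ± 15.4 CPM (SD, n = 7, range 23.7 to 68.3, median 29.1) and B6 had 34.6 ± 12.6 CPM (SD, n = 8, range 17.8 to 51.1, median 36.4). The 129 libraries had a mean of 37.1 ± 14.5 CPM (SD, n = 8, range 20.9 to 62.3, median 34.8). WSB, with the highest mean of both genes, had 52.6 ± 33.3 CPM (SD, n = 8, range 23.5 to 121, median 42.6).

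**Figure D1:**
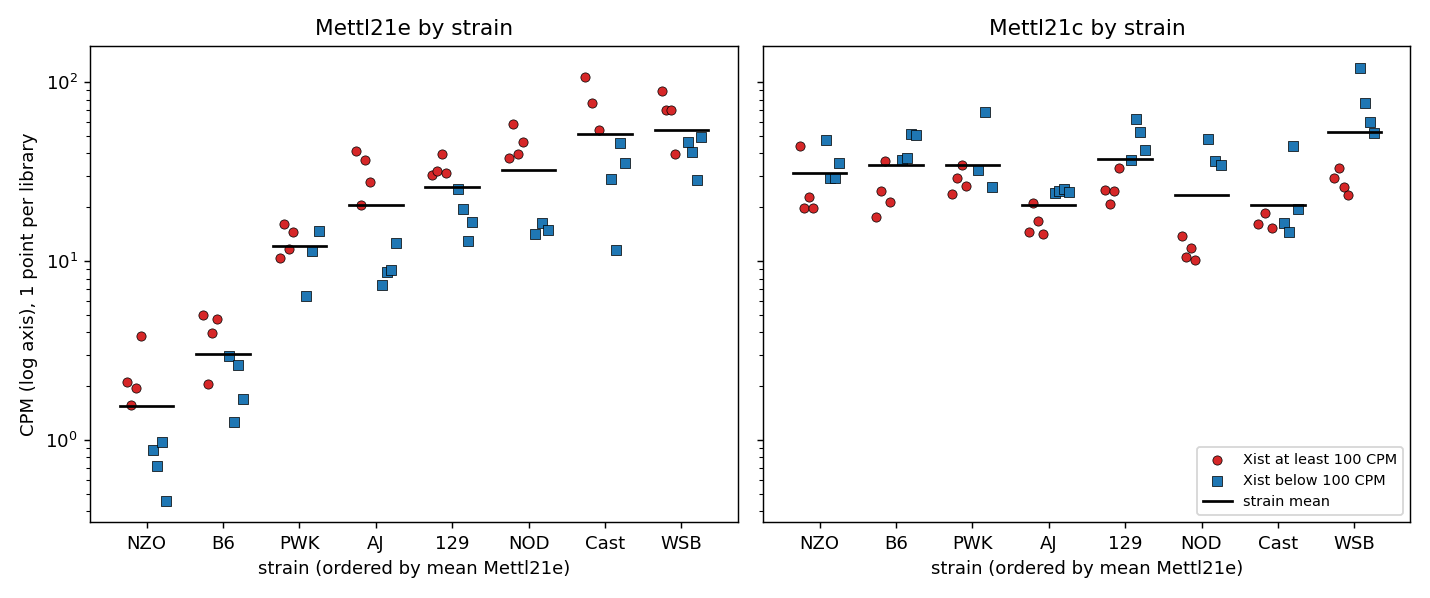
CPM of Mettl21e (left) and Mettl21c (right) in each of 61 libraries on a log axis, by strain in the order of mean Mettl21e; black lines are strain means, red circles libraries with Xist of at least 100 CPM and blue squares the others. Mettl21e climbs from a mean of 1.56 CPM in NZO to 54.2 CPM in WSB, while the strain means of Mettl21c lie between 20.6 and 52.6 CPM.

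Set against the mean of the other 7 strains, Mettl21e in NZO differed by -3.74 ± 0.38 on the log2 scale (SE), a 13.4-fold lower level. The other strains had a mean of 28.5 ± 19.1 CPM (SD of 7 strain means). All 8 NZO libraries lay below every library outside NZO and B6, and 4 of the 8 lay below every other library of the study. In this comparison 12.7% of all tested genes were called lower in NZO and 14.6% higher. Mettl21c differed by 0.03 ± 0.24 on the log2 scale, with 31.0 ± 10.5 CPM in NZO and 31.9 ± 11.5 CPM over the other strains. The log2 differences, and the fold made from them, average the strains on the log scale. The CPM means do not, so the 2 measures need not match in size or sign.

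Within strains the 2 genes divided along the level of Xist, in opposite directions. In 5 strains every library high in Xist had more Mettl21e than every library low in Xist, as was true in at least 5 strains for 0.593% of the tested genes. In the same number of strains every library low in Xist had more Mettl21c than those high in Xist, as was true in at least 5 strains for 1.25% of tested genes. In B6, 1 of these 5, the lowest library low in Xist was only 1.01 times the highest library high in Xist. The labels gave no sex, and no test was made between the 2 kinds of library, a division chosen after the values were seen. It was used only for description and for alternative fits of the NZO comparison.

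NOD showed the widest division of both genes. Its 4 libraries high in Xist had 37.6, 58.8, 39.8 and 46.1 CPM of Mettl21e, and its other 3 had 14.1, 16.4 and 14.9 CPM. In the same order, Mettl21c stood at 13.9, 10.5, 11.9 and 10.1 CPM in the former and 48.0, 36.1 and 34.5 CPM in the latter. The libraries rich in one of the genes were thus the ones poor in the other.

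In AJ, Mettl21e was at 20.7 to 41.3 CPM in libraries high in Xist and 7.37 to 12.7 CPM in the others, and Mettl21c at 14.2 to 21.2 against 23.9 to 25.2 CPM. In 129, Mettl21e was at 30.3 to 39.8 against 12.9 to 25.3 CPM, and Mettl21c at 20.9 to 33.0 against 36.6 to 62.3 CPM. Both strains thus repeated the pattern of NOD with smaller gaps. Cast and NZO were divided for Mettl21e and overlapped for Mettl21c. In Cast, Mettl21e was at 54.2 to 107 CPM in libraries high in Xist and 11.5 to 45.8 CPM in the others.

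NZO held its division at very low levels. The libraries high in Xist had 2.11, 1.57, 1.96 and 3.81 CPM of Mettl21e, and those low in Xist had 0.877, 0.716, 0.977 and 0.459 CPM. B6 and WSB were divided for Mettl21c and overlapped for Mettl21e. In WSB, Mettl21c was at 23.5 to 33.0 CPM in libraries high in Xist and 52.1 to 121 CPM in the others, and in B6 at 17.8 to 36.2 against 36.5 to 51.1 CPM. The 36.5 CPM was that of B6_5, the library rich in Rn18s-rs5, and the next lowest was B6_6 at 37.9 CPM. Per M of all counts, without the scaling, B6_5 had 15.2 and the B6 libraries high in Xist had 18.9 to 34.7. PWK overlapped for both genes.

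The low level of Mettl21e in NZO was present on both sides of this division. Among libraries low in Xist, the highest NZO library (0.977 CPM) lay below the lowest B6 library (1.25 CPM) and below the lowest library of the other 6 strains (6.42 CPM). Among libraries high in Xist, NZO (1.57 to 3.81 CPM) overlapped with B6 (2.07 to 5.03 CPM) and lay below the lowest library of the other 6 strains (10.5 CPM).

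The balance between the genes differed accordingly. The ratio of Mettl21e to Mettl21c in CPM had a median of 0.472 over the 61 libraries and ran from 0.0130 to 6.62. Mettl21e exceeded Mettl21c in 20 libraries, of which 17 were high in Xist and 3 low. In NZO the ratio was 0.0130 to 0.191 and in B6 0.0330 to 0.283, while Cast had 0.795 to 6.62 and NOD 0.294 to 5.60. CPM does not correct for length, and the comparison of levels between the genes depends on the transcript assumed. Per kilobase of the coding transcripts the median ratio was 0.160, and Mettl21e was the higher in 7 libraries (3 of Cast, 3 of NOD and 1 of WSB, all high in Xist). Per kilobase of all annotated exons, 3961 bases for Mettl21e and 4300 for Mettl21c, the median was 0.512 and Mettl21e was the higher in 23 libraries.

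**Figure D2:**
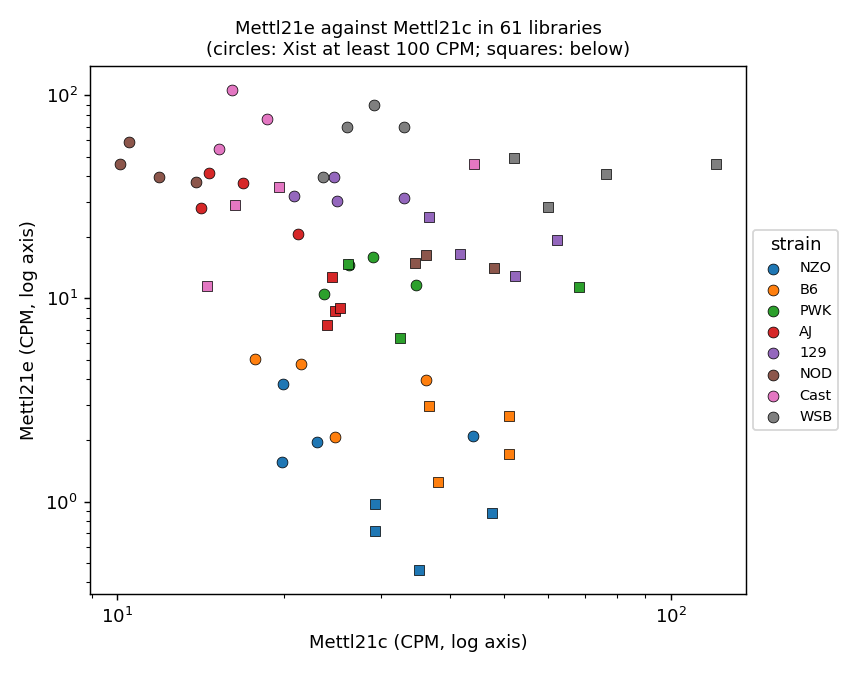
Mettl21e (vertical) against Mettl21c (horizontal) in CPM on log axes, 1 point per library, coloured by strain; circles are libraries with Xist of at least 100 CPM and squares the others. NZO and B6 lie at the bottom with ratios of at most 0.283, and the circles of Cast and NOD at the upper left with ratios of 2.71 to 6.62.

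Genes around the pair were read in the same comparison of NZO with the other strains. Of 13 genes in the table within 500 kb of either gene, 12 were tested, 9 of them differed among strains (85.5% of all tested genes), and 5 were called in NZO (27.3% of all tested genes). The largest difference among the 12 was 0.64 on the log2 scale, against 3.74 for Mettl21e. As Mettl21e was chosen by its low level in NZO and the neighbours were not, a gap between these values is no result about the locus. Nck2, an adaptor of receptor tyrosine kinases, was higher in NZO (16.7 ± 2.88 CPM, SD, n = 8, against 13.1 ± 3.32, SD of 7 strain means) by 0.38 ± 0.11 on the log2 scale (SE, edgeR adjusted p = 0.00424). The gene 1500015O10Rik was higher by 0.48 ± 0.18 (edgeR adjusted p = 0.041), a call that ended without NZO library 1, 3, 5, 6 or 7.

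Kdelc1, a glucosyltransferase of the endoplasmic reticulum, was lower in NZO (3.80 ± 0.39 CPM, SD, n = 8, against 5.10 ± 0.60) by -0.41 ± 0.07 on the log2 scale (edgeR adjusted p = 2.23e-06). Its exons overlap those of Gm29247 on the same strand, and reads of the 2 may not be told apart. Ercc5, a DNA repair endonuclease, was lower by -0.23 ± 0.06 (edgeR adjusted p = 0.00291). Uxs1, which makes UDP-xylose, was lower by -0.27 ± 0.09 (edgeR adjusted p = 0.0156), a call that ended without NZO library 8. No difference was called for Tpp2 (-0.08), a peptidase gene beside Mettl21c, nor for Bivm (-0.02), Tex30 (0.11) or Gulp1 (0.16).

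Gm15833, a processed pseudogene on the opposite strand inside an intron of Mettl21e, had 0.609 ± 0.263 CPM in NZO (SD, n = 8) and 1.11 ± 0.541 over the other strains. Its difference of -0.64 ± 0.29 was not called (edgeR adjusted p = 0.0981). Its lowest strain was PWK (0.216 CPM), and in B6 it stood at 1.00 CPM, so that its strain order was not that of Mettl21e.

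**Figure D3:**
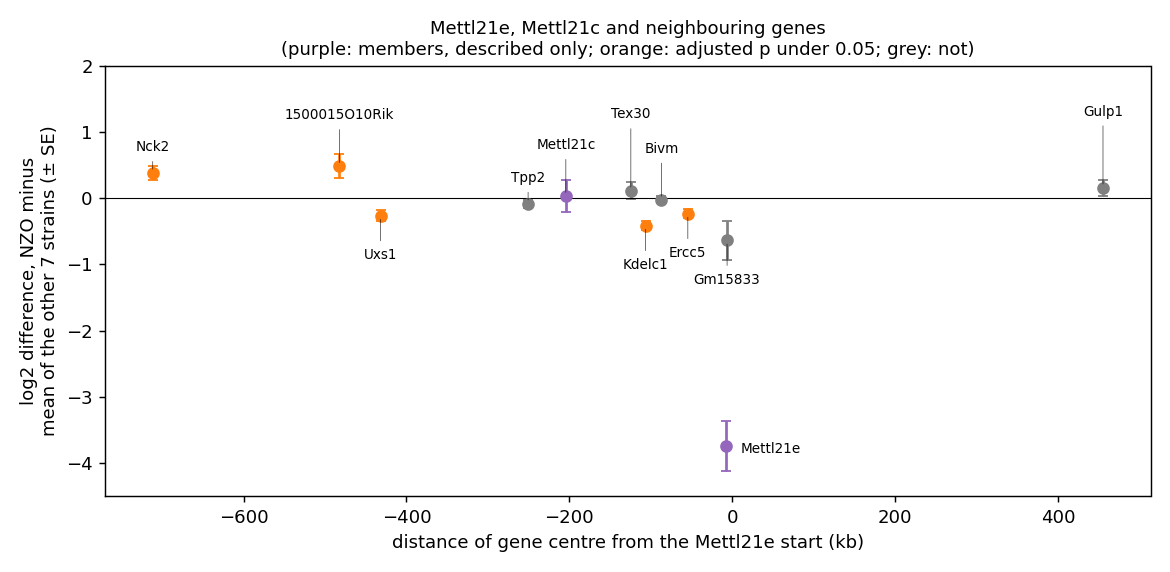
Log2 difference of NZO from the mean of the other 7 strains (vertical, ± SE) for Mettl21e, Mettl21c and 10 neighbouring genes with a mean of at least 1 CPM, by distance of each gene's centre from the Mettl21e start in kb (horizontal). Mettl21e stands at -3.74 and the neighbours between -0.64 and 0.48.

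Related methyltransferases were counted next. Of 15 tested relatives, the rest of the METTL21 family and other seven-beta-strand protein methyltransferases, 2 were higher and 2 lower in NZO, with a median difference of -0.0041 on the log2 scale against -0.02 over all tested genes. Of all tested genes 14.6% were called higher and 12.7% lower. Mettl22, a lysine methyltransferase, was higher by 0.35 ± 0.06 (SE, edgeR adjusted p = 1.99e-05), with 48.1 ± 7.06 CPM in NZO and 39.6 ± 10.9 elsewhere. Fam173a, a mitochondrial lysine methyltransferase gene, was higher by 0.37 ± 0.08 (edgeR adjusted p = 0.000572). Its paralogue Fam173b, which acts on ATP synthase, was lower by -0.23 ± 0.07 (edgeR adjusted p = 0.00866), a call that ended without NZO library 1. Vcpkmt, the methyltransferase named for VCP, was lower by -0.33, a call that ended without any one of NZO libraries 2, 3, 4, 5 and 8. It lies below the level set for naming genes and was named after its values were seen. Exons of Fam173a overlap other genes, and its reads are uncertain in that respect.

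A list of other methyltransferases, mostly of the SET-domain and PRMT classes, had 2 of 15 genes higher and 1 lower. Smyd2 was higher by 0.40 ± 0.08 (edgeR adjusted p = 0.000201) and Setd3, the actin histidine methyltransferase, by 0.23 ± 0.03 (edgeR adjusted p = 2.68e-07). Carnmt1, the carnosine methyltransferase, was lower by -0.27 ± 0.07 (edgeR adjusted p = 0.00225). Setd3 and Carnmt1 each have near-identical annotated copies. Both counts lie below the background shares.

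The partner systems were counted in the same way. Of 26 genes of the METTL21C substrates and the VCP system, 2 were higher and 2 lower, where 14.6% and 12.7% of all tested genes were, and the median was -0.04 on the log2 scale. Vcp had 550.1 ± 55.8 CPM in NZO (SD, n = 8) and a difference of -0.02 (edgeR adjusted p = 0.783). Its strain means ran from 460.0 CPM in WSB to 668 CPM in PWK, so that WSB, highest for Mettl21c, had the lowest Vcp. Hspa8 had 1057 ± 127 CPM in NZO and a difference of -0.08 (edgeR adjusted p = 0.433), and its highest strain mean was 1504 CPM in WSB. Vcp and Hspa8 both have near-identical annotated copies, so their levels carry that uncertainty.

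Aspscr1, a VCP cofactor that holds the glucose transporter GLUT4 inside cells, was lower in NZO by -0.33 ± 0.08 (edgeR adjusted p = 0.000827). WSB had the lowest strain mean of Aspscr1 (12.3 CPM, against 13.1 CPM in NZO) and Cast the highest (30.2 CPM). Derl1, a channel protein of endoplasmic reticulum degradation, was lower by -0.12 ± 0.04 (edgeR adjusted p = 0.0216). The VCP cofactors Ubxn2a and Ubxn6 were higher by 0.18 ± 0.06 and 0.13 ± 0.05 (edgeR adjusted p = 0.0146 and 0.0406). Without NZO library 5 or 6 the list had 2 calls in place of 4. Single libraries ended the calls of Ubxn6 (2, 3, 5, 6, 7 or 8), Derl1 (5, 6 or 8) and Ubxn2a (8).

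Of 37 genes of the 26S proteasome and its activators, 3 were lower in NZO and 0 higher by edgeR's test, with 1 higher at an unadjusted p of 0.05 and 0 by DESeq2, and the median was -0.02. Psmf1, a proteasome inhibitor, had 11.2 ± 1.33 CPM in NZO and 15.5 ± 5.82 elsewhere, a difference of -0.39 ± 0.10 (edgeR adjusted p = 0.00122). The core subunit Psmb1 was lower by -0.28 ± 0.06 (edgeR adjusted p = 8.02e-05). Its lowest strain mean was that of B6 (51.6 CPM, against 53.0 CPM in NZO) and its highest that of Cast (103 CPM). Psma1, also of the core, was lower by -0.25 ± 0.08 (edgeR adjusted p = 0.0222), a call that ended without NZO library 6 or 8. The share of proteasome genes called lower was below the background of 12.7%. Libraries high in Xist alone gave 8 calls, 5 higher and 3 lower.

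Autophagy genes had 6 of 21 lower and 0 higher by edgeR's test, with a median of -0.08. The count of lower genes is above the 12.7% of all tested genes, which is a description of the list and not a test. At an unadjusted p of 0.05, 2 were higher, and DESeq2 called 1. Map1lc3a, an LC3 protein of the autophagosome membrane, was lower by -0.43 ± 0.08 (edgeR adjusted p = 4.19e-05), with 51.8 ± 10.8 CPM in NZO and 71.6 ± 18.2 elsewhere. The autophagy receptor Nbr1 was lower by -0.30 ± 0.08 (edgeR adjusted p = 0.0039) and the lipid kinase Pik3c3 by -0.26 ± 0.06 (edgeR adjusted p = 0.00058). Strain means of Nbr1 ran from 95.4 CPM in PWK, below the 97.7 CPM of NZO, to 290 CPM in Cast. Libraries low in Xist alone gave 3 calls in place of 6.

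Slow fibre genes were higher in NZO. Of 15, 11 were higher and 0 lower by edgeR's test, where 14.6% and 12.7% of all tested genes were. The median was 0.92, and at an unadjusted p of 0.05 and by DESeq2 the lower count was 0 too. Tnni1, Myl3 and Tnnt1, parts of the slow thin and thick filaments, were higher by 1.21 ± 0.17, 1.19 ± 0.14 and 1.17 ± 0.17 (edgeR adjusted p = 1.5e-07, 2.29e-10 and 3.15e-07). Myh7, the slow myosin heavy chain, had 1940 ± 1083 CPM in NZO and 0.94 ± 0.18 more on the log2 scale (edgeR adjusted p = 4.29e-05). Exons of Myl3 and Myh7 overlap genes on the opposite strand, and Myh7 has a near-identical stretch in Myh6. The summed level of the list ran from 3028 to 11164 CPM in NZO and from 1283 to 5663 CPM elsewhere. In B6, the other strain low in Mettl21e, the median of that sum was 2817 CPM, against 2673 CPM over all libraries outside NZO. The part of fibre make-up in the level of Mettl21e was not tested. With the slow fibre sum as a covariate the difference of Mettl21e from the other strains was -4.53 on the log2 scale and that of Mettl21c 0.60. The same covariate ended the calls of Tnnt1, which is part of the sum, and of Carnmt1, Fam173b, Mstn, Mybpc2, Tnni2, Uxs1 and 1500015O10Rik. It also ended that of the adipocyte marker Cidec. Myh7, also part of the sum, was called in all 21 alternatives, but in 1 of them as lower in NZO (-0.14). In bulk muscle, fewer fibres of a type and less RNA per fibre cannot be told apart.

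Fast fibre genes had 2 of 19 higher and 3 lower in NZO, near the 27.3% of all tested genes called in either direction, with a median of -0.0059. Myh4, the heavy chain of the IIb fibres in which METTL21E was described, had 68460 ± 7559 CPM in NZO and a difference of 0.11 (edgeR adjusted p = 0.236). Myh1, the heavy chain of IIx fibres, was lower by -0.37 ± 0.09 (edgeR adjusted p = 0.000891) and so was the fast troponin Tnnt3 by -0.37 ± 0.07 (edgeR adjusted p = 3.14e-05). Strain means of Myh1 were lowest in B6 (4492 ± 628 CPM), NZO (5088 ± 997 CPM) and AJ (5185 ± 462 CPM) and highest in Cast (9023 ± 2334 CPM). AJ and NZO differed by less than the SD of NZO in Myh1. Mean Mettl21e was 3.05 CPM in B6, 1.56 CPM in NZO, 20.5 CPM in AJ and 51.3 CPM in Cast. In 129, WSB, NOD and PWK mean Myh1 was 6549, 7056, 7323 and 7597 CPM, in that order. Mean Mettl21e in the same strains was 25.9, 54.2, 32.5 and 12.2 CPM, so the strain orders of the 2 genes differed. The part of IIx fibres in the level of Mettl21e was not tested. Reads of Myh1 and of its antisense neighbour Myhas cannot be told apart, since strand use in counting is not given.

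The fast troponin Tnni2 was lower by -0.18 ± 0.07, and Actn3 and Mybpc2, which bind fast filaments, were higher by 0.25 ± 0.08 and 0.21 ± 0.07 (edgeR adjusted p = 0.0305, 0.0209 and 0.0263). Without NZO library 4 or 8 the list had 3 calls in place of 5. Single NZO libraries ended the calls of Tnni2 (1, 4 or 8), Mybpc2 (2, 3, 4 or 8) and Actn3 (8).

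Regulators of fibre type, growth and myogenesis had 6 of 31 higher and 2 lower in NZO, near the 27.3% of all tested genes called in either direction, with a median of -0.03. Prox1, a transcription factor of slow fibres, was higher by 0.78 ± 0.15 (edgeR adjusted p = 2.98e-05), Rcan1, a calcineurin regulator, by 0.71 ± 0.13 (edgeR adjusted p = 3.62e-05) and Nfatc2, a calcineurin target, by 0.58 ± 0.13 (edgeR adjusted p = 0.000246). Mstn, myostatin, which limits muscle growth, was lower by -0.40 ± 0.12 (edgeR adjusted p = 0.00656), with 49.3 ± 5.02 CPM in NZO, and PWK was lower still at 39.3 ± 5.30 CPM. Exons of Prox1 overlap an antisense gene.

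**Figure D4:**
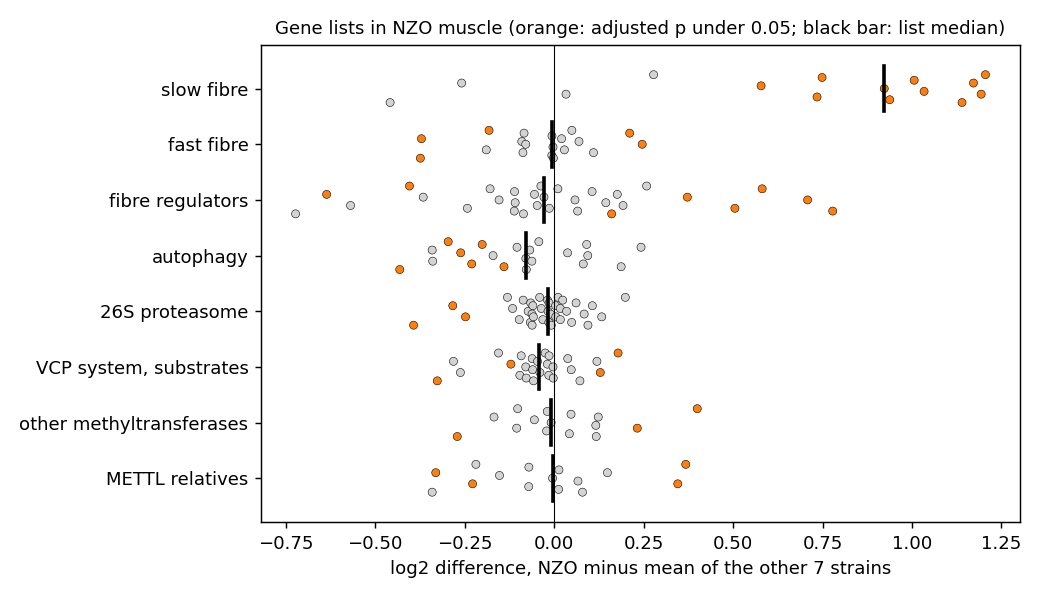
Log2 difference of NZO from the mean of the other 7 strains (horizontal) for each tested gene of 8 lists, 1 point per gene; orange points passed an edgeR adjusted p of 0.05 and black bars are list medians. The slow fibre list has a median of 0.92, and the medians of the other 7 lie between -0.08 and -0.0041.

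Markers of other cell types were read in the same comparison. Tendon markers were higher in NZO for 7 of 8 genes, keratinocyte markers lower for 6 of 8, and adipocyte markers higher for 2 and lower for 2 of 10. Of skeletal muscle fibre markers, 2 of 9 were higher. Among all tested genes, 14.6% were called higher in NZO and 12.7% lower. The keratinocyte count was 6 without NZO library 1, 4 without library 6, 3 without library 2, 3, 5 or 7 and 2 without library 4 or 8, and it was 1 with the replicate block. This count was 0 in libraries high in Xist alone, 1 in those low in Xist alone and 0 with the slow fibre sum as a covariate. Of the adipocyte calls, that of Cidec ended without NZO library 1, 2, 3 or 4 and with the slow fibre sum as a covariate. That of Cidea ended without 2, 4, 6, 7 or 8. The block ended both. Without NZO library 3 or 8, 1 fibre marker was higher. Tendon markers higher in NZO numbered 6 or 7 without any one NZO library, 3 in libraries high in Xist alone and 2 with the slow fibre sum as a covariate. By edgeR's test 0 of 10 hepatocyte, 0 of 9 lymphocyte and 0 of 8 nerve markers were called in either direction. At an unadjusted p of 0.05 and by DESeq2 these counts were 0 for hepatocyte and nerve markers and 2, both lower, for lymphocyte markers. Summed tendon markers ran from 521 to 939 CPM in NZO and 163 to 724 CPM elsewhere, and summed keratinocyte markers from 3.12 to 15.9 CPM in NZO and 3.84 to 413 CPM elsewhere, with Lor, Krt14, Sfn, Dmkn and Krtdap at a median under 1 CPM. Of the lymphocyte markers 8 of 9 had a median under 1 CPM. Their part in the levels of the pair was not tested beyond a fit with hepatocyte, lymphocyte and keratinocyte sums as covariates, in which Mettl21e differed by -3.91 on the log2 scale.

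The genes most like each member were found by Pearson's r of log2 CPM over the 61 libraries among 8891 genes with a mean of at least 5 CPM. These values are descriptions: the libraries share strains, depth and the division by Xist, and fall into clusters along it. Most like Mettl21e were Mrps35 (r = 0.82), a protein of the mitochondrial ribosome, Plekhf1 (0.79), Rnls (0.78), Auh (0.77), an enzyme of leucine breakdown, and Park2 (0.74), the ubiquitin ligase parkin. They lie on chromosomes 6, 7, 19, 13 and 17. Their differences of NZO from the other strains were -0.31 to -1.28 on the log2 scale, against -3.74 for Mettl21e, which was chosen by that difference. Myh1 had r = 0.66, Myh4 -0.29 and Myh7 -0.06.

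With the strain means taken away, other genes came closest to Mettl21e. They were Ube2r2 (r = 0.76), a ubiquitin-conjugating enzyme, Ddx3x (0.75), an RNA helicase encoded on X, Ak4 (0.73), Ostm1 (0.73) and Rnf128 (0.73), the last also on X. All libraries high in Xist exceeded the others in 8 of 8 strains for Ddx3x, 7 for Ube2r2 and Ak4, 6 for Ostm1 and 5 for Rnf128. Myh7 had r = 0.47 with Mettl21e within strains, and it too was divided by Xist in 5 strains. The slow fibre sum ran from 2124 to 11164 CPM in libraries high in Xist and from 1283 to 4601 CPM in those low in it.

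For Mettl21c the closest over all libraries were Npnt (r = 0.77), Cdk19 (0.74), Amd1 (0.73), Jak2 (0.73) and Wls (0.72). Within strains they were Gadl1 (0.88), which makes beta-alanine, St3gal5 (0.87), the GM3 ganglioside synthase, Amd1 (0.82), Smox (0.82) and Plpp3 (0.81). Amd1 makes decarboxylated S-adenosylmethionine, the donor for polyamine synthesis, and Smox is spermine oxidase, so that both act in polyamine metabolism. Libraries low in Xist all exceeded the others in 8 of 8 strains for Gadl1, in 7 each for Amd1, Smox and Plpp3 and in 6 for St3gal5. Amd1 has 5 near-identical annotated copies. Myh7 had r = -0.48 with Mettl21c within strains. Mettl21e and Mettl21c themselves had r = -0.21 over all libraries and -0.51 within strains.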

How the data were processed

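RNA of skeletal muscle was measured by sequencing of polyadenylated RNA in 61 libraries, with pulverised frozen tissue, an ERCC spike-in and the KAPA mRNA HyperPrep kit, per the labels' protocols. The authors deposited expected counts per gene (estimated reads, not scaled) and variance-stabilised values on a log2 scale. Per the submitters' processing notes the build was GRCm38 and DESeq2 was used. Not given in the sources used here are the aligner, the counter, the annotation release and whether strand was used.

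Strains were taken from the library titles. The design had assumed whole counts, so expected counts were rounded. Genes were tested with edgeR 4.0.16 (R 4.3.3; filterByExpr, TMM, quasi-likelihood F test) in 1 fit with strain as factor and 53 residual degrees of freedom. Every adjusted p is edgeR's, by Benjamini and Hochberg over the 16682 tested genes, with a threshold of 0.05. SE is the log2 difference over the square root of F. CPM uses TMM-scaled library sizes, and the other strains enter by the mean and SD of their 7 means. Near copies were sought with BLAST 2.17.0 (200 bases or more at 95% identity or more), and coding sequences were aligned with MAFFT 7.526. Named genes with such a copy over at least 50% of the shorter transcript (Ak4, Amd1, Aspscr1, Carnmt1, Derl1, Fam173a, Hspa8, Kdelc1, Myh7, Nck2, Plekhf1, Setd3, Ubxn2a, Uxs1 and Vcp) may share reads with it. In data simulated for the NZO comparison (16397 genes), 83.2% of genes changed by 1 on the log2 scale were recovered and 94.8% of those changed by 2, with 2 false calls. There 200 genes were changed in NZO, and no gene differed among the other strains or along Xist. Real genes did so, so these rates check the code and do not give the error of the real comparison.

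Members and lists were chosen with earlier results of these data known. Named were both members, per list up to 3 called genes a direction with the largest difference and a mean of at least 5 CPM, tested genes within 500 kb with a mean of at least 1 CPM, the 5 genes highest in r, and Myh4, Myh7, Vcp, Hspa8 and Mstn. Alternatives were DESeq2 size factors and test, filters, a replicate block, covariates, limma 3.58.1 on the deposited log2 values and leaving out libraries. Those on Xist were added after the data were seen.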

Additional observations from a re-analysis of the deposited data

Results flagged for a closer look

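Among 16 sets of libraries (each gene in each strain), 2 held a library whose gap to its nearest neighbour took up more of the range of log2 CPM than Dixon's 95% limit, where chance gives about 1 in 20. Mettl21c in library Cast_7 stood at 44.1 CPM, with a gap of 0.731 of the range. Mettl21c in library PWK_4 stood at 68.3 CPM, with a gap of 0.641 of the range. Both were low in Xist.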

How the results depend on the processing

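The difference of Mettl21e in NZO, by which the gene was chosen, ran from -4.53 to -2.48 on the log2 scale over the 21 alternatives. Its sign could hardly change, as all 8 NZO libraries lay below every library outside NZO and B6. The -2.48 came from limma on the deposited variance-stabilised values, and leaving out 1 NZO library gave -4.06 to -3.60. Mettl21c was at -0.17 to 0.60, the last with the slow fibre sum as a covariate, and at -0.08 to 0.10 without 1 NZO library. With that covariate the slow fibre list, of which the sum is made, had 3 genes higher and 5 lower, and 3 neighbours were called in place of 5.

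Genes differing among strains numbered 14256, and 7588 of 8262 tested with at least 10 CPM in at least 7 libraries. That filter, which tests fewer genes, gave 2689 calls for NZO in place of 4546, 2 relatives, 5 regulators and 3 neighbours. Without 1 NZO library the calls for NZO were 4100 to 4197, those of the VCP list 2 to 6 and those of fast fibre genes 3 to 5. Libraries high in Xist alone gave 8 proteasome genes, 3 fast fibre genes and 2 neighbours. Libraries low in Xist alone gave 2314 calls for NZO, 2 relatives, 2 VCP genes, 3 autophagy genes, 3 fast fibre genes, 5 regulators and 3 neighbours. Of the genes named with their values outside the marker lists, calls of Actn3, Carnmt1, Mettl22, Mstn, Nck2, Smyd2, Ubxn6 and 1500015O10Rik ended in the former, those of Aspscr1, Ercc5, Fam173b, Nfatc2, Pik3c3, Prox1, Psma1 and Ubxn2a in the latter, and those of Derl1, Mybpc2, Nbr1, Tnni2, Uxs1 and Vcpkmt in both. Both use fewer libraries. For the other shifts the cause was not tested.

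With the replicate number as a block, 4596 genes were called for NZO, and Mettl21e differed by -3.82. The numbers do not pair the libraries: 72 of 186 pairs of the same number had a correlation over 0.1, and 8 of 61 libraries correlated best with their own number. In all strains but PWK, libraries numbered 1 to 4 were high in Xist and those numbered 5 to 8 low. The block thus follows the division by Xist in large part, and the 2 cannot be told apart. Depth limits Mettl21e in NZO, where libraries held 17 to 116 counts.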
